A study of Homo sapiens and Mus musculus with 21 samples.

Results

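The comparison described here is that of the DHX15 hairpin shDHX15-2 with the control hairpin shGFP in CUTLL1 cells. It was made on the 6 RNA-seq libraries whose treatment labels name these hairpins, 3 per group, of 21 samples in the series, and on the 14545 of 19848 genes that reached 1 RPKM in 3 or more of those libraries. RPKM is the read count divided by gene length and library size, so it can be compared between genes. CUTLL1 is an established human line of T-cell acute lymphoblastic leukemia (T-ALL), and a hairpin (shRNA) is a short RNA, delivered here by lentivirus, that lowers the messenger RNA it matches. The shGFP cells carried a hairpin against green fluorescent protein, which human cells lack, and no other gene change or drug is named for either group. Besides these, the series holds 3 CUTLL1 libraries of another hairpin, shDHX15-1, 3 with the drug ciclopirox at 5 µM and 3 with its solvent DMSO, 4 libraries of RNA immunoprecipitation (RIP) and 2 of mouse thymus.

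DHX15 is a DEAH-box RNA helicase, an enzyme that uses ATP to pull RNA out of protein complexes. It takes apart spliceosomes at the end of splicing or when a splice site is rejected, acts in the assembly of ribosomal subunits, and is switched on by partner proteins that share a glycine-rich G-patch. In T-ALL, NOTCH1 and MYC drive growth, and in normal T cells signals from the antigen receptor pass through the ERK kinases to immediate early genes and through NF-κB to genes of survival and cytokines.

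A single line was used, so the values speak for CUTLL1 alone. For the hairpin's sequence and the time from infection to harvest, the sources used here give nothing. Whether a group's libraries are separate cultures is not stated by the labels, and p-values therefore measure only how far these libraries spread, possibly for technical reasons. Bulk RNA was measured, so fewer cells of a kind and less RNA per cell cannot be told apart in anything below. Library totals, recovered as the divisors of the RPKM values, were 59702150 to 62633707 reads, at least 99.74% of them in the listed genes. Whether these totals count all reads sequenced or only reads assigned to genes is not given. Replicates were tight: among 5668 genes averaging 10 RPKM or more, the median coefficient of variation was 2.78% with shGFP and 2.15% with shDHX15-2. A coefficient above 20% was seen for 59 of those genes with shGFP and 21 with shDHX15-2. Of 16 T-lineage and T-ALL markers 14 stood at 1 RPKM or more, PTCRA having no row in the table used here, and their summed level was 1421 to 1453 RPKM with shGFP and 1736 to 1758 with shDHX15-2. Of 8 B cell markers only CD79A and CD79B had rows, their sum being 26.3 to 27.4 RPKM with shGFP and 60.7 to 62.4 with shDHX15-2, and of 8 myeloid markers only CD68 reached 1 RPKM. The endothelial marker PECAM1 stood at 20.9 to 21.8 and 20.7 to 21.7 RPKM, and markers of natural killer, erythroid, epithelial and fibroblast cells had no row in the table.

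The targeted gene was measured first. DHX15 stood at 42.8, 44.1 and 43.2 RPKM with shGFP and 16.1, 16.5 and 16.8 with shDHX15-2. The 3 shDHX15-2 libraries all lay below the 3 controls, by far more than either group's spread. Its mean fell from 43.4 ± 0.649 RPKM in the controls to 16.5 ± 0.361 in the hairpin libraries (SD, n = 3 each), a ratio of 0.380. It fell by 1.34 on the log2(RPKM + 1) scale (SE 0.0242, limma, Benjamini-Hochberg adjusted p = 2.55e-07). All log2 fold changes below are on that scale, shDHX15-2 minus shGFP unless stated, which understates the change of genes near or below 1 RPKM.

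Most genes shifted a little and few shifted a lot. A gene was called at a limma adjusted p under 0.05, and 9454 of 14545 genes (65.0%) were called, 5046 higher (34.7%) and 4408 lower (30.3%). Their median absolute log2 fold change was 0.28, and the smallest called was 0.05. Only 1040 of the called genes (11%) changed by at least 1.5-fold and 180 by at least 2-fold, which is 1.24% of the genes tested, 116 of these higher and 64 lower. This last count depends on how low genes are treated and was 421 with a pseudocount of 0.1 in place of 1. The 3 values of one group all lay outside those of the other for 10278 genes (70.7%). Counts of list members below are to be read against these shares, and list medians against the median of all tested genes, 0.02. Higher and lower calls were spread unevenly over expression level. In the lowest quintile of genes by level (0.641 to 2.57 RPKM) 32.7% were higher and 18.7% lower (median log2 fold change 0.06). In the highest quintile (from 19.6 RPKM) 30.9% were higher and 45.2% lower (median −0.05). Lists of highly expressed genes are therefore to be read against the highest quintile too. The median level was 6.81 RPKM for higher genes, 10.9 for lower genes and 5.36 for genes not called.

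**Figure D1:**
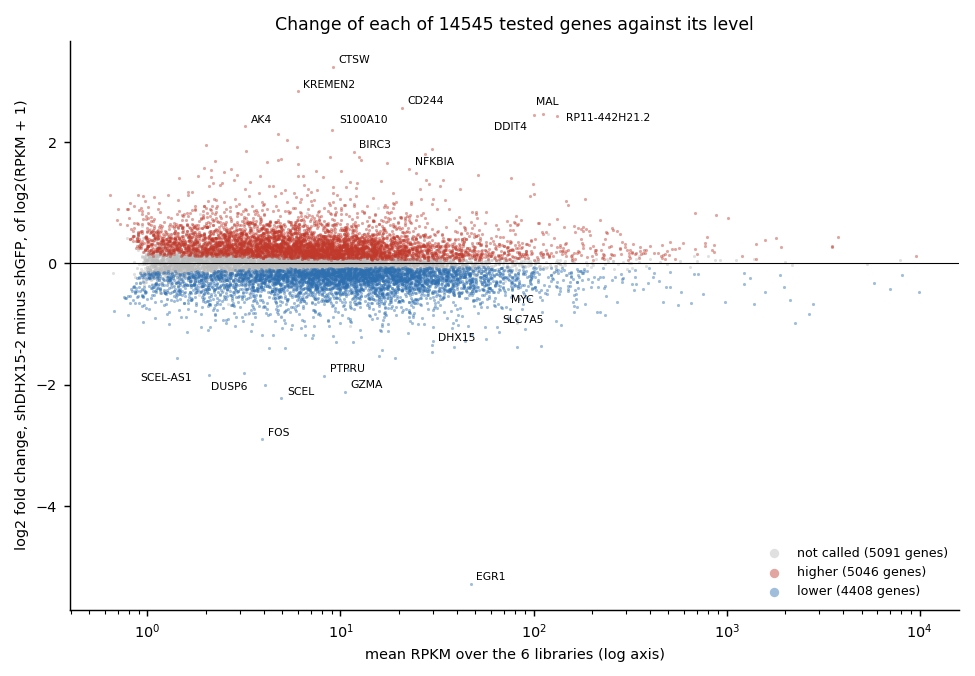
Log2 fold change of each tested gene (shDHX15-2 minus shGFP, of log2(RPKM + 1)) against its mean RPKM over the 6 libraries on a log axis; each point is 1 gene, red where called higher (5046), blue where called lower (4408) and grey where not called (5091). Most points lie within 1 log2 unit of 0, and EGR1 at −5.28 and CTSW at 3.24 stand at the ends.

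Among the largest rises, CTSW, a cathepsin of cytotoxic lymphocytes, stood at 0.997, 0.828 and 0.966 RPKM with shGFP and 17.2, 17.4 and 17.2 with shDHX15-2. Its groups were far apart, with shDHX15-2 libraries within a narrow range, a ratio of means of 18.6 and a log2 fold change of 3.24 (SE 0.0410, limma adjusted p = 9.67e-08). CD244, a surface receptor of the SLAM family, measured 5.61, 5.24 and 4.99 RPKM with shGFP and 35.3, 37.2 and 36.3 with shDHX15-2, again without overlap, and rose by 2.57 (limma adjusted p = 2.43e-07). The membrane raft protein gene MAL, named for T cell maturation, measured 35.0, 33.1 and 32.3 RPKM with shGFP and 192, 186 and 192 with shDHX15-2 and rose by 2.47 (limma adjusted p = 9.67e-08). All 3 shDHX15-2 libraries were above every control for these genes.

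KREMEN2, a receptor for Dickkopf proteins, rose from under 1 RPKM in each control (0.681, 0.707 and 0.794) to 11.5, 11.4 and 11.1, a log2 fold change of 2.83. DDIT4, an inhibitor of mTORC1, measured 30.8, 30.2 and 30.5 RPKM with shGFP and 169, 170.1 and 170.5 with shDHX15-2 and rose by 2.44 (SE 0.0171, limma adjusted p = 8.93e-09), the smallest adjusted p among the named genes. RP11-442H21.2, a transcript known by its clone name, measured 41.8, 39.8 and 40.7 RPKM with shGFP and 224, 224 and 227 with shDHX15-2 and rose by 2.44. The replicates of these 3 entries lay close together in both groups. Whether reads of RP11-442H21.2 are separate from those of DDIT4, which also rose by 2.44, was not tested. The strand setting of the counting is not known, so overlapping transcripts cannot be told apart. AK4, a mitochondrial adenylate kinase, rose from 0.455 ± 0.0379 RPKM in the controls to 5.98 ± 0.0877 in the hairpin libraries (SD, n = 3 each), S100A10, the partner of annexin A2, by 2.19, and IGFBP2, a binding protein of insulin-like growth factors, by 1.88. BCL3, an unusual member of the IκB family, rose by 1.95, ZC3H12A, an RNase that degrades messenger RNAs of inflammation, by 1.92 and N4BP3 by 1.85. The clone-named AC103563.9 rose by 2.13 and TRAV41, a segment of the T cell receptor alpha locus, by 2.04. TRAV41 belongs to a family of similar segments, and AC103563.9 rests on 33 to 53 reads in the controls, so both are less certain. These 14 genes were ranked by their change, so their sizes are a description of the top of the list.

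The largest fall was that of EGR1, a zinc finger transcription factor of the immediate early response, which measured 98.0, 89.4 and 92.3 RPKM with shGFP and 1.61, 1.37 and 1.30 with shDHX15-2. Its shDHX15-2 libraries held 252 to 301 reads where the controls held 17148 to 18479, the ratio of means was 0.0153, and the log2 fold change −5.28 (SE 0.0551, limma adjusted p = 4.28e-08). FOS, a subunit of the AP-1 factor, measured 7.85, 7.63 and 7.63 RPKM with shGFP and 0.155, 0.179 and 0.160 with shDHX15-2, its 15 to 18 reads per shDHX15-2 library standing against 756 to 774, a ratio of 0.0214 and a log2 fold change of −2.90 (limma adjusted p = 9.67e-08). No shDHX15-2 library came near a control for either gene. DUSP6, a phosphatase that switches off ERK, measured 6.82, 7.45 and 7.06 RPKM with shGFP and 1.07, 1.07 and 0.928 with shDHX15-2 and fell by 2.004 (limma adjusted p = 7.14e-07). DUSP2, a nuclear phosphatase of the same family, fell from 23.9 ± 1.40 RPKM in the controls to 7.72 ± 0.821 in the hairpin libraries (SD, n = 3 each).

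CD69, an early activation marker of lymphocytes, measured 29.1, 29.8 and 28.8 RPKM with shGFP and 9.23, 9.01 and 9.46 with shDHX15-2 and fell by 1.56 (limma adjusted p = 2.43e-07). GZMA, the gene of granzyme A, measured 18.3, 19.6 and 15.2 RPKM with shGFP and 3.48, 3.37 and 3.03 with shDHX15-2 and fell by 2.12. KLF2, a factor that controls migration of T cells, measured 27.8, 18.9 and 26.3 RPKM with shGFP and 8.63, 8.03 and 8.42 with shDHX15-2. Control replicate 2 was the lowest of its group for KLF2, though still above every shDHX15-2 library, and the log2 fold change was −1.42 (SE 0.131, limma adjusted p = 0.000113), ranging from −1.58 to −1.32 as single libraries were left out. PTPRU, a receptor tyrosine phosphatase, fell by 1.85, the peptidase inhibitor gene PI16 fell by 1.75 and NAA50, an N-terminal acetyltransferase, fell by 1.47. SCEL, the gene of sciellin, fell by 2.23 and SCEL-AS1, by its name antisense to it, fell by 1.84. Reads of a gene and its antisense partner cannot be told apart without the strand setting of the counting, which no source used here gives. Of the 14 largest falls 2 were of clone-named transcripts, with log2 fold changes of −1.80 for one and −1.56 for AL109767.1. The latter rests on 74 to 100 reads in the controls and 6 to 9 with shDHX15-2, so it is less certain.

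**Figure D2:**
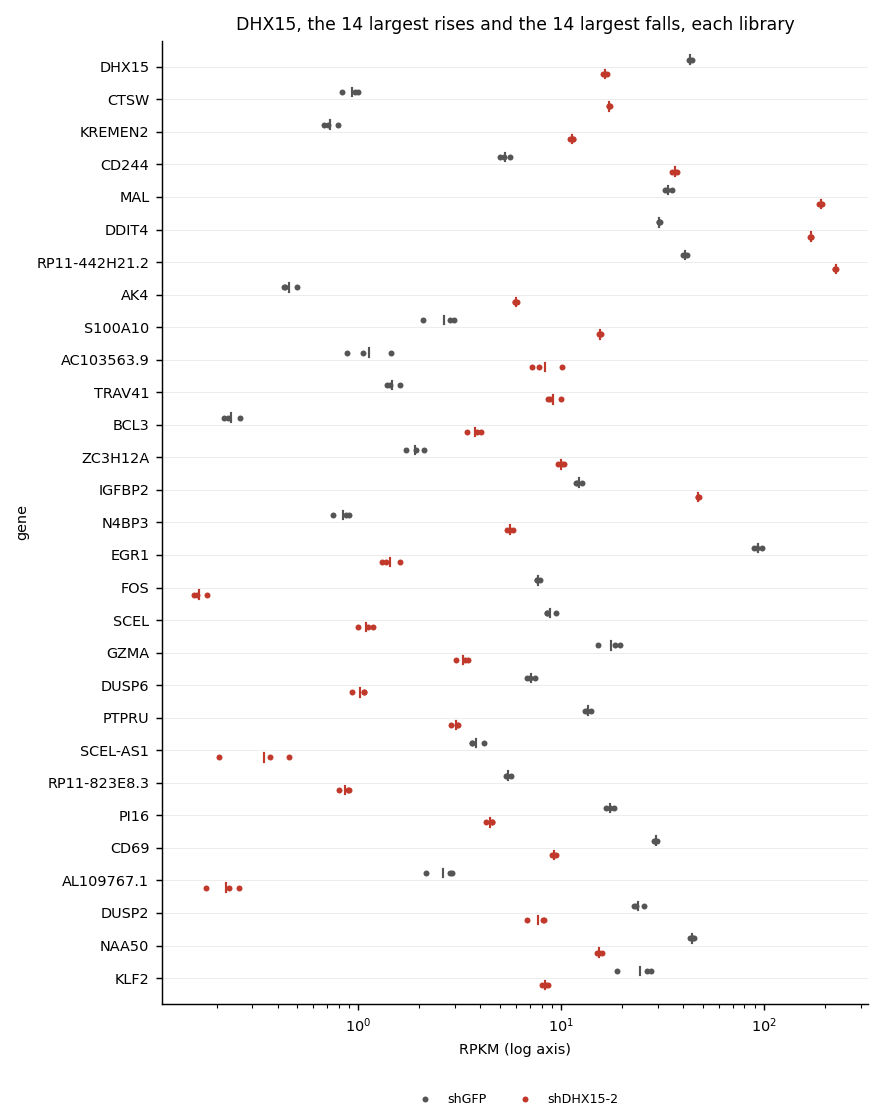
RPKM (log axis) of DHX15, the 14 largest rises and the 14 largest falls in each of the 3 shGFP (grey) and 3 shDHX15-2 (red) libraries; points are libraries and short bars group means. The groups do not overlap for any gene shown, from CTSW (0.930 to 17.3 RPKM on average) to EGR1 (93.2 to 1.43).

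Immediate early genes as a list did not move one way. Of 20 tested members 6 were higher and 10 lower, with a median of −0.12. Beside EGR1, FOS, CD69 and KLF2, IER2 fell from 63.1 to 25.4 RPKM (−1.28) and the AP-1 subunit gene JUNB from 76.7 to 47.3 RPKM (−0.69). Smaller falls were those of NAB2 (−0.27), a corepressor of EGR proteins, of SRF (−0.23), the factor that drives many of these genes, of the RNA decay factor gene ZFP36 (−0.23) and of ATF3 (−0.17). Of these, leaving out single libraries ended the call of SRF (without shDHX15-2 replicate 2, limma adjusted p = 0.0507), of ZFP36 (without any of the 3 controls, up to 0.0744) and of ATF3 (without shDHX15-2 replicate 2 or 3 or shGFP replicate 2 or 3, up to 0.0825). JUN, the partner of FOS, went the other way and measured 0.611, 0.813 and 0.685 RPKM with shGFP and 3.64, 3.44 and 3.60 with shDHX15-2, a rise of 1.42 (limma adjusted p = 3.92e-06). KLF10 rose by 1.24, the antiproliferative gene BTG2 by 1.29, NAB1 by 0.56, IER5 by 0.35 and the kinase gene PIM1 by 0.33. IER5 lost its call without shDHX15-2 replicate 1 (limma adjusted p = 0.0521). JUND (0.02), KLF6 (0.05), IER3 (0.08) and BTG1 (−0.08) were not called. JUND measured 71.2, 51.7 and 69.7 RPKM with shGFP and 69.2, 62.0 and 61.9 with shDHX15-2. BTG1 measured 27.0, 19.3 and 20.7 RPKM with shGFP and 21.7, 20.4 and 20.8 with shDHX15-2. The groups overlapped for JUND and BTG1, and control replicate 2 was again the lowest control for both, as it was for KLF2 and IER5. Of 9 genes of ERK feedback 6 were lower and 1 higher, with a median of −0.38. Beside the phosphatases above, the ERK pathway inhibitors SPRED2 and SPRED1 fell (−0.50 and −0.43), DUSP1 fell by 0.38 and DUSP7 fell by 0.28, while DUSP10, which acts on p38 and JNK, rose by 0.48.

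The promoter of EGR1 is shown because EGR1 had the largest change of all named genes and its control by serum response factor runs through CArG boxes. The 250 bases before its start site lie at chr5:138465229-138465478 of GRCh38.p14 on the plus strand, from RefSeq, and capitals mark the CArG boxes, which begin 105 and 83 bases before the start site.
EGR1: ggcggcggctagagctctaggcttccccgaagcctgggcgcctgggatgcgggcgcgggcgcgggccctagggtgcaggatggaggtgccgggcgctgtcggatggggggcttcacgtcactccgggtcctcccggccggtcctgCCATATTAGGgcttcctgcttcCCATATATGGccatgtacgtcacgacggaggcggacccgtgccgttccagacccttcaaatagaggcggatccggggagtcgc
CArG boxes were searched for on both strands in the 250 bases before the start site of the 17 immediate early members with a RefSeq promoter. Only EGR1 and SRF held one, against 1.16% of all 35116 promoters and 1.38% of those of 9028 tested genes. A match is a description of the letters and says nothing of binding in these cells.

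NF-κB targets stood highest of the 47 lists. Of 18 members, all tested, 14 were higher and 3 lower, with a median of 0.80 (0.76 to 0.82 under the other scalings). They span the subunits, the inhibitors and the products of the pathway. Among subunits, RELB of the alternative pathway measured 2.71, 2.01 and 2.54 RPKM with shGFP and 10.2, 9.33 and 9.28 with shDHX15-2 and rose by 1.64 (limma adjusted p = 9.41e-06), and NFKB2, its partner, measured 6.03, 6.21 and 5.95 RPKM with shGFP and 14.01, 13.7 and 13.7 with shDHX15-2 and rose by 1.07. Neither gene's groups overlapped. The subunits of the classical pathway moved less, with REL at 0.25, NFKB1 at 0.17 and RELA at −0.12, all 3 called. RELA, the last of these, fell from 15.4 to 14.1 RPKM on average, a call lost without shDHX15-2 replicate 1 or 2 or shGFP replicate 2 or 3 (limma adjusted p up to 0.065).

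The inhibitors that NF-κB induces against itself rose with them. NFKBIA, which holds NF-κB in the cytoplasm as IκBα, measured 11.1, 10.2 and 11.8 RPKM with shGFP and 34.1, 35.4 and 33.9 with shDHX15-2 and rose by 1.56 (limma adjusted p = 1.79e-06). TNFAIP3, the ubiquitin editing enzyme A20, measured 12.8, 12.5 and 12.3 RPKM with shGFP and 26.6, 26.1 and 26.0 with shDHX15-2 and rose by 1.01, and NFKBIE by 0.48. Libraries of the hairpin lay above all controls for each. BCL3 was nearly silent in the controls, at 0.262, 0.227 and 0.217 RPKM on 44 to 51 reads, and measured 3.84, 3.43 and 4.01 with shDHX15-2 on 691 to 802 reads, a ratio of means of 16.0. Among products, BIRC3, an inhibitor of apoptosis that also acts within the pathway, measured 4.72, 4.20 and 4.81 RPKM with shGFP and 19.0, 18.6 and 19.1 with shDHX15-2 and rose by 1.84 (SE 0.0455, limma adjusted p = 7.79e-07). BIRC2, its close relative, rose by 0.42 and the adaptor gene TRAF1 by 0.86. The lymphotoxin genes LTB and LTA rose by 1.04 and 0.81, LTB from 95.9 ± 1.40 RPKM in the controls to 198 ± 1.17 in the hairpin libraries (SD, n = 3 each), and CD83 by 0.79. TNF, the neighbour of the lymphotoxin genes, fell from 22.6 ± 0.319 RPKM in the controls to 15.9 ± 0.706 in the hairpin libraries (SD, n = 3 each) (−0.48) and TNFAIP8 fell by 0.14, and ICAM1, a common target, was not called (0.03), with overlapping groups. SOCS1, an inhibitor of cytokine signalling outside the list, was chosen after its values were seen. It was called higher (1.45, limma adjusted p = 0.00256) on controls that differed among themselves, at 38.8, 17.1 and 28.9 RPKM, replicate 2 again being the lowest.

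Promoters of NFKBIA and BIRC3 are shown because they were among the largest rises of the list and hold the NF-κB motif, searched for on both strands. Each window is the 250 bases before the start site in RefSeq on GRCh38.p14, at chr14:35404750-35404999 on the minus strand for NFKBIA and chr11:102317234-102317483 on the plus strand for BIRC3. Capitals mark the motif on either strand, which begins 81 bases before the start site in NFKBIA, and 199 and 135 bases before it in BIRC3.
NFKBIA: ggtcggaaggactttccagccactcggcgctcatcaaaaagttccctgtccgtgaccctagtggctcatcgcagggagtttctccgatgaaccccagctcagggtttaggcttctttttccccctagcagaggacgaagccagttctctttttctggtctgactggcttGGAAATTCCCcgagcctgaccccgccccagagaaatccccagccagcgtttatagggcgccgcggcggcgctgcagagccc
BIRC3: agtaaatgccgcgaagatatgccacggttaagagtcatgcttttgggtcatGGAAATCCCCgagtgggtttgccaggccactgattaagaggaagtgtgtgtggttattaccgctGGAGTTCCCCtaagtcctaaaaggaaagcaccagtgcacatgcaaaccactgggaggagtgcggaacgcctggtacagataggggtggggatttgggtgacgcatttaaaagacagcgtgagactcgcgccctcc
Of 16 members with a RefSeq promoter 9 held the motif (56.2%), against 5.21% of all 35116 promoters and 7.64% of those of 9028 tested genes. The 9 were BIRC3, CD83, LTA, LTB, NFKB1, NFKB2, NFKBIA, REL and TNFAIP3. All 9 were among the 12 with a promoter that were called higher. The list was drawn from genes known as NF-κB targets, so a high share of the motif in it is a property of the list, and the match says nothing of binding here. RELB and BCL3 were called higher and held no match in this window.

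**Figure D3:**
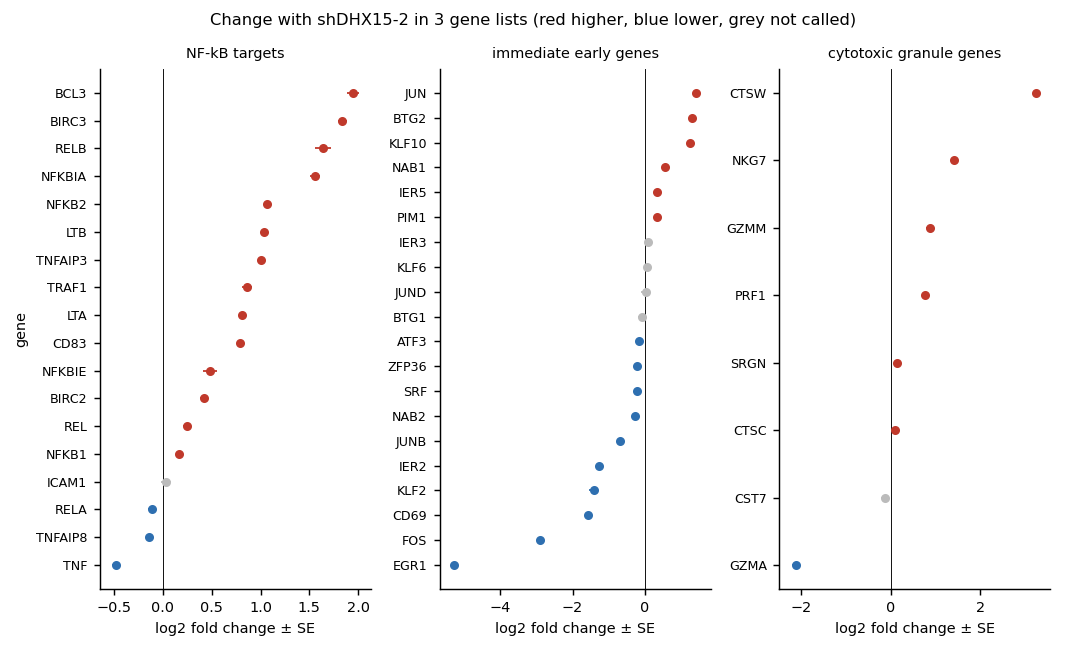
Log2 fold change (shDHX15-2 minus shGFP, of log2(RPKM + 1)) with its standard error for each tested member of the NF-κB target, immediate early and cytotoxic granule lists; red points were called higher, blue lower and grey not called. In the NF-κB list 14 of 18 are higher, while the other 2 lists hold large changes in both directions, from EGR1 at −5.28 to CTSW at 3.24.

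Hypoxia response genes and the glycolytic enzymes among their targets were higher. Of 33 tested hypoxia genes 29 were higher and 3 lower (median 0.50), and of 20 glycolysis genes 16 were higher and 4 lower (median 0.50); 2 genes, ALDOC and HK2, are in both lists. After DDIT4 and AK4 came BHLHE40, a stress-induced repressor, which measured 7.75, 7.74 and 8.02 RPKM with shGFP and 27.2, 27.4 and 26.0 with shDHX15-2 and rose by 1.66 (limma adjusted p = 2.55e-07), and EGLN3, an oxygen sensor that marks HIF for decay, which measured 0.821, 0.680 and 0.950 RPKM with shGFP and 4.10, 4.13 and 4.32 with shDHX15-2 and rose by 1.51. The groups of both genes were separate. Among enzymes GPI, which follows hexokinase in glycolysis, measured 61.2, 59.5 and 59.3 RPKM with shGFP and 129.5, 130.4 and 132 with shDHX15-2 and rose by 1.11 (limma adjusted p = 2.55e-07), and ENO1 rose from 760.4 ± 12.6 RPKM in the controls to 1283 ± 6.99 in the hairpin libraries (SD, n = 3 each). ALDOC, an aldolase, rose by 1.44 and PFKL, the liver form of phosphofructokinase, by 0.72, whereas PFKM, the muscle form, fell from 11.4 to 6.62 RPKM (−0.70). The lower genes of the hypoxia list were CITED2 (−1.09), which competes with HIF for its coactivator, JMJD6 (−0.41) and ERO1A (−0.40). LDHA rose by 0.48 and LDHB, the other lactate dehydrogenase subunit, fell by 0.31.

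The promoter of DDIT4 is shown because DDIT4 led the hypoxia list. It lies at chr10:72273674-72273923 of GRCh38.p14 on the plus strand, and capitals mark ACGTG, the core bound by HIF, which begins 125 bases before the start site.
DDIT4: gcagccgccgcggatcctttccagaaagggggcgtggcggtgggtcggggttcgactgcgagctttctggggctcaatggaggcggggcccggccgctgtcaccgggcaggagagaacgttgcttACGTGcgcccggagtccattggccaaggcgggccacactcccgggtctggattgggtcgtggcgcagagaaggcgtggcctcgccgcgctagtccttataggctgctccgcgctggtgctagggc
This short motif occurs in 18.5% of all 35116 promoters on either strand, and in 29.2% of those of 9028 tested genes. RefSeq promoters matched 26 of 33 hypoxia members, under the 80% needed to give a share over the list.

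Genes that build ribosomes were lower while the genes of cytosolic ribosomal proteins were slightly higher. Of 50 ribosome biogenesis factors 41 were lower and 2 higher, with a median of −0.29. The nucleolar factor LYAR measured 29.7, 30.1 and 30.0 RPKM with shGFP and 19.1, 18.4 and 18.4 with shDHX15-2 and fell by 0.65 (limma adjusted p = 2.19e-06), and GAR1, a protein of the H/ACA particles that modify ribosomal RNA, measured 24.9, 24.4 and 23.9 RPKM with shGFP and 15.7, 15.1 and 15.3 with shDHX15-2 and fell by 0.64. NIP7 fell by 0.59, PNO1, a chaperone of the small subunit, fell by 0.58 and RRP1B fell by 0.58. The members of this list ranged from −0.65 to 0.13. Of 79 cytosolic ribosomal protein genes 59 were higher and 2 lower, with a median of 0.16. RPL10 measured 168, 173 and 154 RPKM with shGFP and 222, 234 and 230.5 with shDHX15-2 and rose by 0.47, RPL28 by 0.36, RPS27 by 0.35 and RPL13A by 0.34. RPLP2, a protein of the ribosomal stalk, was the exception in size and fell from 280.4 ± 9.86 RPKM in the controls to 193 ± 4.05 in the hairpin libraries (SD, n = 3 each) (−0.53), and RPL39 fell by 0.21. After median-centring of the libraries 45 of the 79 were higher, with a median of 0.11. These genes have many near-identical pseudogenes, so their reads are uncertain.

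Small nucleolar RNAs are cut from introns of host genes. Of 21 snoRNA host genes 11 were higher and 2 lower (median 0.12, and 0.07 to 0.16 under the other scalings). C6orf48, also known as SNHG32, measured 23.2, 23.3 and 21.1 RPKM with shGFP and 46.9, 46.8 and 48.6 with shDHX15-2 and rose by 1.04 (limma adjusted p = 3.65e-06), ZFAS1 rose by 0.75 and SNHG6 by 0.63, while SNHG3 measured 22.7, 22.8 and 21.8 RPKM with shGFP and 9.92, 9.42 and 10.2 with shDHX15-2 and fell by 1.11. Of 74 mitochondrial ribosomal protein genes 42 were lower and 1 higher (median −0.13), and MRPS6 fell most, from 24.4 ± 0.495 RPKM in the controls to 10.8 ± 0.621 in the hairpin libraries (SD, n = 3 each) (−1.11).

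**Figure D4:**
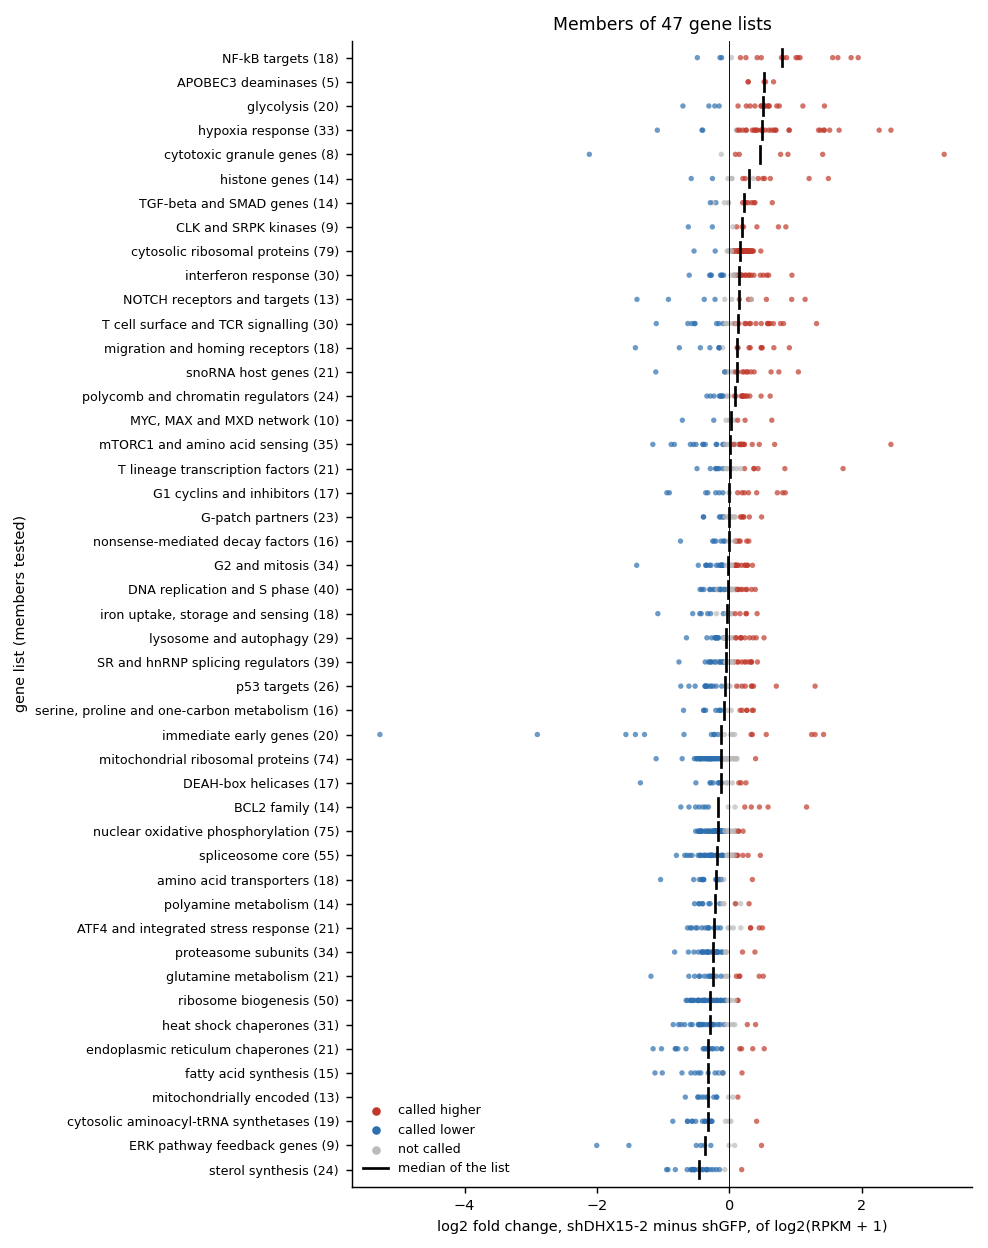
Log2 fold change (shDHX15-2 minus shGFP, of log2(RPKM + 1)) of every tested member of 47 gene lists, ordered by the list median (black bar), with the number of members tested in brackets; red points were called higher, blue lower and grey not called. NF-κB targets stand at the top with a median of 0.80 and sterol synthesis at the bottom with −0.45.

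Genes of protein folding, protein degradation and transfer RNA charging were mostly lower. Of 31 cytosolic and mitochondrial heat shock chaperones 25 were lower and 2 higher (median −0.30). AHSA1, the activator of HSP90, measured 53.6, 53.2 and 50.6 RPKM with shGFP and 28.9, 29.4 and 27.7 with shDHX15-2 and fell by 0.85 (limma adjusted p = 3.5e-06), the HSP110 gene HSPH1 fell by 0.77, FKBP4 fell by 0.73, STIP1, which links HSP70 to HSP90, fell by 0.68 and DNAJA1 fell by 0.59. Of 21 endoplasmic reticulum chaperones and sensors 17 were lower and 4 higher (median −0.32). HSPA5, the chaperone BiP, measured 61.2, 62.0 and 62.3 RPKM with shGFP and 29.9, 29.5 and 30.2 with shDHX15-2 and fell by 1.03 (limma adjusted p = 2.85e-07), SDF2L1 fell by 1.15, HYOU1 fell by 0.82, and the stress sensor ERN1 and its target XBP1 fell (−0.81 and −0.78). Groups were separate for all of these. The 4 higher were DNAJB9 (0.53), CRELD2 (0.35), EDEM1 (0.18) and P4HB (0.16). Of 34 proteasome subunits 28 were lower and 2 higher (median −0.24). PSMB5, a catalytic subunit, fell from 19.5 ± 0.661 RPKM in the controls to 10.6 ± 0.669 in the hairpin libraries (SD, n = 3 each) (−0.83) and the base subunit gene PSMD1 fell by 0.62. Of 19 cytosolic aminoacyl-tRNA synthetases, which load amino acids onto transfer RNA, 15 were lower and 1 higher (median −0.33). IARS fell from 25.1 ± 0.216 RPKM in the controls to 13.4 ± 0.344 in the hairpin libraries (SD, n = 3 each) (−0.86), VARS fell by 0.63 and GARS fell by 0.63.

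Most lipid synthesis genes were lower. Of 24 sterol synthesis genes 22 were lower and 1 higher, with a median of −0.45, the lowest of the 47 lists. MSMO1, a demethylase of sterol synthesis, measured 12.01, 11.9 and 11.2 RPKM with shGFP and 5.95, 5.21 and 5.61 with shDHX15-2 and fell by 0.95 (limma adjusted p = 1.08e-05). INSIG1, which holds the sterol sensor in the endoplasmic reticulum, measured 106, 108 and 110.0 RPKM with shGFP and 57.0, 54.8 and 56.7 with shDHX15-2 and fell by 0.93. The groups did not overlap for either gene. HMGCS1, an enzyme near the start of the pathway, fell by 0.64. Of 15 fatty acid synthesis genes 12 were lower and 1 higher (median −0.32). FASN, fatty acid synthase, measured 90.3, 89.0 and 94.8 RPKM with shGFP and 41.2, 41.3 and 41.6 with shDHX15-2 and fell by 1.12 (limma adjusted p = 6.87e-07), the desaturase gene SCD measured 187, 189 and 185 RPKM with shGFP and 91.8, 92.2 and 92.3 with shDHX15-2 and fell by 1.01, and ACLY, which makes cytosolic acetyl-CoA, fell by 0.72 and ACACA fell by 0.58.

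Splicing genes were mostly lower among the core and divided among the regulators. Of 55 core spliceosome genes 34 were lower and 8 higher (median −0.19, and −0.23 to −0.11 under the other scalings). SNRPB2, the U2 B″ protein, measured 25.7, 27.5 and 26.9 RPKM with shGFP and 15.1, 15.4 and 14.2 with shDHX15-2 and fell by 0.80 (limma adjusted p = 7.16e-06). SNRPB, of the Sm ring, fell by 0.67, and the U5 genes EFTUD2 and PRPF8 fell (−0.64 and −0.56). DDX42 rose most (0.47). Of 17 DEAH-box helicase and related genes 10 were lower, DHX15 among them, and 3 higher (median −0.13), with DHX37, of ribosome assembly, at −0.51, the splicing helicase gene DHX16 at −0.29, DHX9 at −0.28 and DHX58, an antiviral sensor, at 0.25. Apart from DHX15 itself, no member changed by as much as 1.5-fold.

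Genes of G-patch proteins, the group that holds the partners of DHX15, divided evenly, with 6 of 23 higher, 6 lower and a median of −0.01 (−0.05 to −0.03 under the other scalings). RBM5, a splicing regulator, rose by 0.49 and AGGF1 by 0.30, whereas PINX1, of telomeres and the nucleolus, fell by 0.39 and GPATCH4 fell by 0.39. Of 9 CLK, SRPK and related kinases that phosphorylate SR proteins 6 were higher and 2 lower (median 0.19). CLK1 measured 12.2, 12.2 and 12.1 RPKM with shGFP and 22.3, 23.0 and 23.2 with shDHX15-2 and rose by 0.85 (limma adjusted p = 1.25e-06), CLK4 rose by 0.74 and CLK2 by 0.42, while SRPK1 measured 24.6, 24.6 and 24.7 RPKM with shGFP and 15.5, 15.8 and 15.7 with shDHX15-2 and fell by 0.62. Among 39 SR and hnRNP genes 11 were higher and 15 lower, led by PTBP3 (−0.76), HNRNPD (−0.37), SRSF5 (0.42), SRSF6 (0.33) and HNRNPA1 (0.33). Of 16 nonsense-mediated decay factors 6 were higher and 7 lower. EIF4A3, of the exon junction complex, fell from 38.4 ± 1.27 RPKM in the controls to 22.6 ± 0.612 in the hairpin libraries (SD, n = 3 each) (−0.74), MAGOH fell by 0.23 and UPF2 rose by 0.29. The medians of these last lists changed sign with the scaling, −0.05 and −0.01 here, and give no direction. Gene-level values do not show which exons or introns were read.

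The growth regulator gene MYC measured 89.1, 90.1 and 89.5 RPKM with shGFP and 53.7, 53.7 and 55.7 with shDHX15-2 and fell by 0.71 (SE 0.0212, limma adjusted p = 1.47e-06). Of its 10 network genes 3 were higher and 2 lower. The antagonist gene MXD4 rose from 2.58 ± 0.112 RPKM in the controls to 4.58 ± 0.0677 in the hairpin libraries (SD, n = 3 each) (0.64), MGA by 0.24 and MLXIP fell by 0.24. MXI1, another antagonist, was called higher by a small step (0.13, limma adjusted p = 0.0355) that 11 of 15 other settings did not call, the leaving out of any 1 library among them, at an adjusted p of up to 0.243. Of 14 polyamine genes 8 were lower and 2 higher (median −0.22), SRM at −0.53, OAZ1 at −0.46 and SMOX at −0.46 among the falls. Of 18 amino acid transporters 15 were lower and 1 higher (median −0.20, and −0.30 to −0.24 under the other scalings). SLC7A5, which imports leucine, measured 89.9, 84.1 and 88.4 RPKM with shGFP and 42.4, 42.2 and 41.4 with shDHX15-2 and fell by 1.04 (limma adjusted p = 1.07e-06), the cystine importer gene SLC7A11 fell by 0.54, SLC1A5 fell by 0.46, SLC38A5 fell by 0.42 and SLC38A2 fell by 0.42. SLC7A6 measured 15.4, 15.4 and 15.7 RPKM with shGFP and 13.5, 14.4 and 13.8 with shDHX15-2, a small log2 fold change of −0.15 with separate groups (limma adjusted p = 0.00324).

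Glutamine metabolism had 13 lower and 5 higher of 21 (median −0.25). IDH1, a cytosolic isocitrate dehydrogenase, measured 9.09, 9.80 and 9.54 RPKM with shGFP and 3.56, 3.59 and 3.67 with shDHX15-2 and fell by 1.19 (limma adjusted p = 1.46e-06), IDH3A fell by 0.61, GLUD1 fell by 0.53 and GOT2 fell by 0.46, while GLUL, glutamine synthetase, rose from 90.7 ± 1.40 RPKM in the controls to 129.7 ± 1.06 in the hairpin libraries (SD, n = 3 each) (0.51). Among 35 genes of mTORC1 and amino acid sensing 14 were higher and 13 lower. EIF4EBP1, the translation repressor that mTORC1 phosphorylates, measured 67.5, 68.4 and 65.0 RPKM with shGFP and 29.7, 29.2 and 29.6 with shDHX15-2 and fell by 1.16 (limma adjusted p = 4.49e-07), GATSL3, the arginine sensor also called CASTOR1, fell by 0.88 and SEH1L, of the GATOR2 complex, fell by 0.83, while FNIP1 rose by 0.68. The integrated stress response list had 13 lower and 4 higher of 21 (median −0.23), with PPP1R15A, the GADD34 phosphatase subunit, falling (−0.59) and the lipoprotein receptor gene VLDLR rising by 0.50. Its lower members GARS, MARS, NARS, SARS and WARS are also counted among the aminoacyl-tRNA synthetases above. Of 16 serine and one-carbon genes 6 were higher and 8 lower, with PSAT1 at −0.39 and PHGDH, the first enzyme of serine synthesis, at −0.36.

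Respiratory genes were mostly lower. Of 75 nuclear genes of oxidative phosphorylation 54 were lower and 4 higher (median −0.17, and −0.21 to −0.11 under the other scalings). NDUFS5, of complex I, fell from 159 ± 5.82 RPKM in the controls to 111 ± 1.10 in the hairpin libraries (SD, n = 3 each) (−0.51) and SDHB, of complex II, fell by 0.47. Of 13 mitochondrially encoded genes 10 were lower and 1 higher (median −0.33, and −0.37 to −0.16 under the other scalings). MT-CYB measured 3489, 3534 and 3324 RPKM with shGFP and 2164, 2208 and 2148 with shDHX15-2 and fell by 0.67. Mitochondrial messages held 5.92% to 6.31% of reads in the controls and 5.67% to 5.77% with shDHX15-2. In iron handling 7 of 18 were lower and 5 higher. The exporter gene SLC40A1 fell from 7.86 ± 0.0935 RPKM in the controls to 3.19 ± 0.260 in the hairpin libraries (SD, n = 3 each) (−1.08), HMOX2 fell by 0.55 and the transferrin receptor gene TFRC fell by 0.43.

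T cell genes rose more often than they fell. Of 30 genes of the T cell surface and antigen receptor signalling 17 were higher and 8 lower (median 0.13). CD7 measured 56.7, 58.4 and 55.3 RPKM with shGFP and 144, 143 and 142 with shDHX15-2 and rose by 1.32 (limma adjusted p = 2.55e-07), CD247, the zeta chain of the receptor, measured 36.0, 36.0 and 36.8 RPKM with shGFP and 64.6, 65.6 and 64.0 with shDHX15-2 and rose by 0.82, and PTPRC, the phosphatase CD45, rose by 0.77 and THEMIS by 0.66. Within the CD3 complex CD3E rose by 0.57 and CD3D by 0.23, but CD3G measured 38.4, 38.2 and 38.5 RPKM with shGFP and 26.5, 26.3 and 26.4 with shDHX15-2 and fell by 0.52. CD38 measured 21.5, 23.3 and 21.7 RPKM with shGFP and 9.58, 9.38 and 10.3 with shDHX15-2 and fell by 1.10, and CD1A fell by 0.57 where CD1E rose by 0.60. CD8A was not called (0.05). The B cell marker CD79A measured 23.6, 24.8 and 24.7 RPKM with shGFP and 57.9, 59.6 and 58.4 with shDHX15-2 and rose by 1.23, CD79B was not called (0.11), and the other 6 B cell markers had no row in the table; the part of other cells in these values was not tested.

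Of 8 tested cytotoxic granule genes 6 were higher and 1 lower (median 0.46). NKG7, of granule release, measured 42.6, 42.2 and 39.5 RPKM with shGFP and 111, 111 and 113 with shDHX15-2 and rose by 1.41 (limma adjusted p = 5.52e-07), the granzyme gene GZMM by 0.88 and PRF1, perforin, by 0.77. GZMA fell, as given above, and CST7 was not called (−0.12). Of 21 T lineage transcription factors 6 were higher and 7 lower. IKZF3, the Aiolos factor, measured 1.76, 1.79 and 1.69 RPKM with shGFP and 8.22, 7.97 and 7.90 with shDHX15-2 and rose by 1.72 (limma adjusted p = 3.49e-07), RUNX3 rose by 0.84 and ETS1 by 0.43, while GATA3 fell from 49.3 ± 1.04 RPKM in the controls to 34.8 ± 0.630 in the hairpin libraries (SD, n = 3 each) (−0.49). Of 18 genes of migration and homing, mostly receptors, 10 were higher and 7 lower. CXCR3 rose by 0.91 and the integrin genes ITGAL and ITGB7 by 0.67 and 0.50, while ITGA4 fell by 0.76. The factor gene KLF2, also counted among immediate early genes above, is one of the lower ones.

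NOTCH receptors and their targets divided too, with 6 of 13 higher and 4 lower (median 0.15, and 0.07 to 0.17 under the other scalings). NOTCH1 measured 33.5, 33.8 and 34.7 RPKM with shGFP and 42.6, 43.4 and 43.0 with shDHX15-2 and rose by 0.33 (limma adjusted p = 2.46e-05), NOTCH3 by 0.56, and the target DTX1 measured 63.4, 59.1 and 64.2 RPKM with shGFP and 140.0, 139 and 137 with shDHX15-2 and rose by 1.14. HES1, the classical target, measured 7.43, 6.16 and 6.25 RPKM with shGFP and 1.98, 2.07 and 1.62 with shDHX15-2 and fell by 1.40 (limma adjusted p = 2.03e-05), and SHQ1 fell by 0.92. LFNG, a glycosyltransferase that modifies NOTCH, rose by 0.94.

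Cell cycle lists held few large changes. Of 17 G1 genes 8 were higher and 7 lower. CCND3, a D-type cyclin, measured 177, 169 and 171 RPKM with shGFP and 87.9, 88.6 and 90.5 with shDHX15-2 and fell by 0.94 (limma adjusted p = 7.35e-07) and its kinase CDK6 fell by 0.91. In the other direction CCNE2 rose by 0.84, and the inhibitors CDKN2C and CDKN1B by 0.80 and 0.72. Of 40 S phase genes 10 were higher and 16 lower, all under 1.5-fold, and of 34 genes of G2 and mitosis 12 were higher and 16 lower. In this last list CENPE, a motor of the kinetochore, measured 7.45, 8.06 and 8.41 RPKM with shGFP and 2.60, 2.34 and 2.26 with shDHX15-2 and fell by 1.40 (limma adjusted p = 4.19e-06), well beyond PLK1 (−0.47) and CCNB1 (−0.36).

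Of 26 p53 targets 8 were higher and 13 lower. BTG2 and the death receptor gene FAS rose by 1.29 and 0.71, and PMAIP1, AEN and MDM2 fell (−0.73, −0.61 and −0.52). Among 14 genes of the BCL2 family 5 were higher and 7 lower. BCL2L11, the death gene BIM, measured 5.36, 5.10 and 5.39 RPKM with shGFP and 13.3, 12.9 and 13.0 with shDHX15-2 and rose by 1.17 (limma adjusted p = 8.71e-07) and BMF by 0.58, while PMAIP1, the death gene NOXA, measured 51.3, 52.3 and 53.3 RPKM with shGFP and 30.9, 30.6 and 31.6 with shDHX15-2 and fell by 0.73, and the effector gene BAK1 fell by 0.61 and BID fell by 0.51. Among the survival genes BCL2 (−0.02) and MCL1 (0.08) were not called, MCL1 being called higher under 5 other settings. BCL2L1 was called lower (−0.40) and BCL2L2 higher (0.45).

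Interferon response genes had 18 higher and 8 lower of 30 (median 0.15). IRF7, which amplifies interferon, rose from 2.05 ± 0.284 RPKM in the controls to 4.88 ± 0.546 in the hairpin libraries (SD, n = 3 each) (0.94), IRF9 by 0.59 and IFITM3 by 0.56, and OASL fell by 0.61. All 5 tested APOBEC3 deaminase genes were higher (median 0.52), from APOBEC3D (0.28) to APOBEC3G (0.67); they are similar in sequence, so their reads may be shared. Of 14 histone genes 8 were higher and 2 lower (median 0.30). HIST1H1C, a linker histone, measured 11.3, 13.4 and 12.4 RPKM with shGFP and 36.3, 37.1 and 36.4 with shDHX15-2 and rose by 1.495 (limma adjusted p = 2.79e-06), HIST1H2AC by 1.204 and H2AFX by 0.62, while H1F0 fell by 0.58. Clustered histone genes are near-identical and many of their messages lack a poly(A) tail, so their values in poly(A)-selected libraries are uncertain. Of 24 chromatin regulators 13 were higher and 8 lower, DNMT3A and DNMT3B, the methyltransferases of new sites, rising by 0.62 and 0.48 and DNMT1, which copies methylation, falling (−0.29). Of 14 TGF-β genes 8 were higher and 2 lower (median 0.22), with SKI at 0.65 and TGFBR1 at 0.39, and of 29 genes of lysosome and autophagy 10 were higher and 12 lower, with SQSTM1 at 0.52 and ATP6V0D1 at −0.65.

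The hairpin shDHX15-1 was set beside shDHX15-2 to see where they differ. Both were compared with the same 3 shGFP libraries, so their fold changes are not independent, and the comparison rests on the limma test of their direct difference, in which the controls cancel. DHX15 itself stood at 17.1, 17.3 and 16.5 RPKM with shDHX15-1, within the range of shDHX15-2 or just above it, and the difference was −0.04 on the log2 scale (limma adjusted p = 0.2). Yet 9177 of 15022 genes (61.1%) differed between the hairpins, 3484 higher with shDHX15-2 (23.2%) and 5693 lower (37.9%). The median gene stood at 3.04 to 3.05 on the log2(RPKM + 1) scale in shDHX15-2 libraries and at 3.11 to 3.12 in shDHX15-1 libraries. Libraries were not rescaled for this test, and how far the split into higher and lower depends on scaling is not given here. EGR1 (difference 0.01, limma adjusted p = 0.865), CD69 (0.01, adjusted p = 0.79), MYC (0.04, adjusted p = 0.1) and PI16 (−0.05, adjusted p = 0.252) were not called between hairpins. A p that misses the threshold does not show that the hairpins act alike on them.

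Among genes called with shDHX15-2, those highest against shDHX15-1 were led by clustered histones. HIST1H1C stood at 6.03, 5.92 and 5.88 RPKM with shDHX15-1, below every control, so the hairpins lay on either side of shGFP and differed by 2.44 (limma adjusted p = 7.1e-09). HIST1H2AC differed by 2.04, HIST1H2BK by 1.90 and IGLL1, a part of the surrogate light chain, by 1.88, each of them below the controls with shDHX15-1 and above with shDHX15-2. The clone-named AP000345.2 showed the same order (1.81). SRM, spermidine synthase, was lower with both hairpins, at 48.0, 49.8 and 48.5 RPKM with shGFP, 34.3, 33.9 and 32.4 with shDHX15-2 and 9.48, 10.3 and 10.5 with shDHX15-1 (difference 1.64, limma adjusted p = 1.47e-08). Lowest against shDHX15-1 stood the entries of NEAT1, the long RNA that forms paraspeckles. NEAT1 measured 6.33, 6.51 and 7.13 RPKM with shGFP, 4.06, 4.17 and 3.98 with shDHX15-2 and 13.0, 12.9 and 13.0 with shDHX15-1. Its difference was −1.46 (limma adjusted p = 3.02e-08), and the 3 further entries NEAT1_1, NEAT1_2 and NEAT1_3 differed by −1.68, −1.68 and −1.70. CENPE stood at 9.43, 9.94 and 9.75 RPKM with shDHX15-1 and differed by −1.66 (limma adjusted p = 4.99e-08), and AKAP9, an anchoring protein of the centrosome and Golgi, by −1.23.

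**Figure D5:**
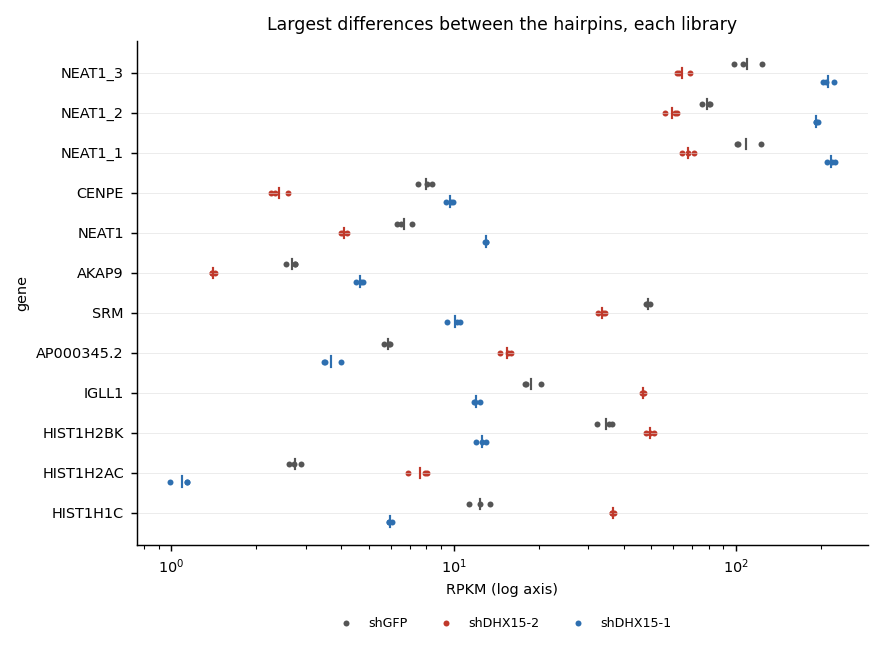
RPKM (log axis) in each of the 9 shRNA libraries for the 12 genes with the largest differences between hairpins among genes called with shDHX15-2; grey is shGFP, red shDHX15-2 and blue shDHX15-1, points are libraries and short bars group means. For every gene but SRM the shGFP libraries lie between those of the 2 hairpins.

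Lists differed between hairpins in the same direct test. Their counts are likewise without rescaling, and are to be read against the 23.2% higher and 37.9% lower of all genes. Of 33 tested hypoxia genes 26 were lower with shDHX15-2 than with shDHX15-1 and 0 higher, DDIT4 by −0.68 and AK4 by −0.50, the rise with shDHX15-2 being the smaller one. Heat shock chaperones (28 of 31 higher with shDHX15-2 than with shDHX15-1, 0 lower), ribosome biogenesis (43 of 50 higher, 1 lower) and cytosolic ribosomal proteins (75 of 79 higher, 1 lower) were mostly higher with shDHX15-2. For heat shock chaperones the median against shGFP was −0.30 with shDHX15-2 and −0.56 with shDHX15-1, and for ribosome biogenesis −0.29 and −0.54. Both medians were thus below 0 with either hairpin, and less so with shDHX15-2. For cytosolic ribosomal proteins the median against shGFP was 0.16 with shDHX15-2 and −0.10 with shDHX15-1. NF-κB targets were higher with shDHX15-2 than with shDHX15-1 for 13 of 18 members and lower for 1, TRAF1. BIRC3 differed by 0.73 (limma adjusted p = 1.46e-06), LTA by 0.86 and NFKBIE by 0.77, and the last 2 were not above the controls with shDHX15-1 (−0.05 and −0.28 against shGFP). CTSW (1.02), CD244 (1.07) and MAL (0.95) were also higher with shDHX15-2, and NAA50 (−0.95), KLF2 (−1.12) and PTPRU (−0.85) lower, each at a limma adjusted p of at most 4.7e-05.

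Ciclopirox offers a comparison in the same line with its own controls. Of 16805 genes tested there 3952 were higher (23.5%) and 4196 lower (25.0%) by limma, and 10451 genes were tested in both experiments. Of the 3784 of these that were higher with shDHX15-2, 32.9% were higher with ciclopirox and 18.2% lower, against 22.6% and 31% of all 10451. Of the 3409 that were lower, 48.8% were lower with ciclopirox and 13.2% higher. Seen from the drug, 52.6% of its 2366 higher genes were higher with shDHX15-2, and 51.5% of its 3235 lower genes lower. The background for these 2 shares is 3784 higher and 3409 lower with shDHX15-2 among all 10451 genes. DHX15 fell with ciclopirox too (−0.74, limma adjusted p = 8.68e-05). It was not alone in this, as 12 of 17 DEAH-box helicase genes were lower with the drug and 2 higher (median −0.48). DDIT4 (4.11), AK4 (3.76) and S100A10 (2.47) rose with the drug as with the hairpin, and 25 of 32 hypoxia genes were higher with the drug. Whether these rises with the drug have to do with DHX15 was not tested. Of 20 immediate early genes 14 were higher with ciclopirox and 2 lower, with EGR1 at 1.92 and FOS at 3.44. Of 9 ERK feedback genes 4 were higher with the drug and 1 lower, with DUSP6 at 0.90. EGR1, FOS and DUSP6 fell with the hairpin. All 48 ribosome biogenesis genes tested in both were lower with the drug (median −1.21), and 23 of 25 p53 targets higher (median 1.41). NF-κB targets had 8 of 17 higher and 2 lower (median 0.43), and CD244 fell slightly (−0.29).

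RIP with a DHX15 antibody gave 4499 peaks in the authors' list, and 3577 lay inside exactly 1 RefSeq gene. Of 2142 tested genes with such a peak 40.8% were higher with shDHX15-2 and 30.6% lower. The shares were 35.4% and 33.5% of 8697 genes without such a peak, and median levels were 7.64 and 8.06 RPKM. This difference in shares was not tested. Peaks inside more than 1 gene were left out, so the 8697 may include genes that hold one. The genomic length of the genes was not compared. Of the largest changes, EGR1 held peaks at chr5:138465989-138466902 and chr5:138466952-138467327 (authors' fold enrichment 1.96 and 1.55), FOS 1 at chr14:75278973-75279717 (2.02), CD244 2, the stronger at chr1:160836228-160839044 (2.16), and PTPRU 1 at chr1:29326248-29326323 (1.79). SLC7A5 held 1 at chr16:87831947-87831997 (1.66). Among the 14 largest rises and 14 largest falls, only CD244, EGR1, FOS and PTPRU held a peak inside exactly 1 gene. Of all 10839 genes compared, 2142 held one. Whether the largest changes hold peaks more or less often than other genes was not tested. Positions are those of the authors' list, whose header names no build. They were read as GRCh38, since 91.9% of peaks lay inside a GRCh38 gene and fewer, 2454 to 2711, did after shifts of 1 to 2 Mb. Peaks were placed by position without regard to strand, exons or introns.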

How the data were processed

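CUTLL1 libraries were poly(A)-selected and read as 150 bp pairs, per the labels' protocols. The deposited table gives RPKM per gene as the authors computed it. The ciclopirox table gives normalised read counts, a signal the authors made by dividing gene counts by 1 size factor per library. The authors' peak list gives a fold enrichment, a ratio, per peak. The submitters' processing notes name the builds hg19, hg38 and mm10 and the tools Scanpy 1.7.1, Cell Ranger 6.0.2, DESeq, DESeq2 1.32.0, STAR 2.4.1.7 and 2.7.5c and FastQC 0.11.9, without saying which served which file. For the RPKM table, strand setting and build are not given in these sources.

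Samples were grouped by their treatment labels. Genes reaching 1 RPKM in 3 or more of the 6 libraries were tested with limma 3.58.1 (R 4.3.3, trended prior) on log2(RPKM + 1), with Benjamini-Hochberg adjustment over all 14545 genes and a threshold of 0.05. The difference between hairpins came from 1 limma fit over 9 libraries. Whole reads were recovered from the RPKM of 19748 genes (100% of values within 1e-05 of a whole read), which gave the library totals and let edgeR 4.0.16 and DESeq2 1.42.0 be run as alternatives. In the ciclopirox table limma was run on log2 of the normalised count plus 1, for genes with at least 10 in at least 3 libraries. There 8148 of 16805 genes were called, and 8163 by edgeR on recovered reads, 100% of values being within 0.01 of a whole read, at 32451469 to 37177509 reads a library; that alternative was chosen after seeing the data. The scripts were tested on simulated data.

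The hairpin, the 47 gene lists and the 8 marker classes were chosen with earlier results of these data known. Of 1283 listed genes 1219 were found among the measured ones. Named genes are DHX15, the 14 largest rises and 14 largest falls among called genes with a mean of at least 1 RPKM, MYC, NOTCH1, SLC7A5, SLC1A5, SLC7A6, SLC38A5 and DDIT4, up to 5 called members of each list by size of change, and the 6 genes on each side of the difference between hairpins. A few genes that this rule selects are not reported here. Other members of the NF-κB, immediate early, ERK feedback and cytotoxic lists, markers, and further members given by value alone were added after their values were seen, as were the 7 motifs searched and the promoters printed. Reads of replicates varied beyond sampling noise, with a chi-square of 2.78 to 7.91 per degree of freedom. Alternatives were another pseudocount, other filters, other scalings, another set of libraries in the fit, a replicate block, other tests and leaving out each library. The mouse single-cell matrices were not used here.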

Additional observations from a re-analysis of the deposited data

Results flagged for a closer look

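Of 256 named genes 20 were called against shGFP in opposite directions by the hairpins, and each also differed in the direct limma test of shDHX15-2 against shDHX15-1. That is 7.81% of the named genes, against 762 of all 14545 genes (5.24%), and 11 of the 20 were named because they differ most between the hairpins. The shGFP libraries are shared by both fold changes and cancel in the difference, which is the value given here on the log2(RPKM + 1) scale.

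Genes above the controls with shDHX15-2 and below them with shDHX15-1 were HIST1H1C (2.44), HIST1H2AC (2.04), HIST1H2BK (1.90), IGLL1 (1.88), AP000345.2 (1.81), TGFBR1 (0.69), ID2 (0.64) and SNHG5 (0.61). TGFBR1, a receptor kinase of TGF-β, stood at −0.30 against shGFP with shDHX15-1 and at 0.39 with shDHX15-2. ID2, which blocks E proteins in lymphocytes, stood at −0.26 and 0.37, and the snoRNA host gene SNHG5 at −0.23 and 0.37.

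Genes below the controls with shDHX15-2 and above them with shDHX15-1 were NEAT1_3 (−1.70), NEAT1_2 (−1.68), NEAT1_1 (−1.68), CENPE (−1.66), NEAT1 (−1.46), AKAP9 (−1.23), PTBP3 (−0.85), RFC1 (−0.58), PHGDH (−0.52), CENPF (−0.43), DYRK2 (−0.36) and DNMT1 (−0.34). The NEAT1 entries share their locus and are not separate genes. PTBP3, a splicing repressor, stood at 0.09 with shDHX15-1 and −0.76 with shDHX15-2, and PHGDH, the first enzyme of serine synthesis, at 0.16 and −0.36. Which of the opposed changes follow from the loss of DHX15 was not tested.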

How the results depend on the processing

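Over 15 other settings the number of genes called was 8590 to 10342, against 9454. The count of genes changed by at least 2-fold, 180, became 421 with a pseudocount of 0.1, 472 by edgeR and 470 by DESeq2, both of which use counts with no pseudocount of 1 RPKM. Lower ERK feedback genes went from 6 to 11 without a filter, where more genes were tested, lower nonsense-mediated decay factors from 7 to 4 and higher mTORC1 genes from 14 to 9 after quantile normalisation; the cause was not tested. The higher share of called genes, 53.4%, was 45.5% after median-centring and 49.5% after quantile normalisation, by edgeR and by DESeq2. Of 4661 values of single genes 4616 kept their direction and side of the threshold. Called genes lost their call in 25, namely 11 of MXI1 (limma, edgeR or DESeq2 adjusted p of 0.0574 to 0.243), 5 of ATF3 (1 of them with the replicate block, limma adjusted p = 0.0616), 4 of RELA, 3 of ZFP36, 1 of SRF and 1 of IER5, and none reversed. Genes reported as not called passed the threshold in 9, namely 5 of MCL1 and 1 each of CD79B, CD8A, CST7 and IER3, and changed sign in 11. Those were ICAM1 (−0.0109 after median-centring, −0.0434 after quantile normalisation), JUND (−0.0257 after median-centring, −0.0209 by edgeR, −0.0193 by DESeq2, and −0.1298 to 0.0972 without single libraries), PECAM1 (0.0173 after quantile normalisation), BCL2 (−0.0403 to 0.0097 without single libraries) and BTG1 (−0.1689 to 0.0639). Leaving out each library in turn gave 8590 to 8957 calls. With the replicate number as a block 9159 genes were called, and 93.9% of the reported calls were shared. Same-numbered libraries deviated together only weakly (correlations of 0.0848, 0.0993 and 0.0029). For shDHX15-2 replicates 1 and 2 the same number gave the highest correlation, and for replicate 3 another number did (0.0330). Deviations from means of 3 libraries cannot show whether same-numbered libraries share a batch or culture, which was not tested. At 59702150 to 62633707 reads a library, counting error bears most on genes with few reads, such as AC103563.9.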
